A study of Mus musculus with 21 samples.

Results

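The neuronal pentraxin family in mouse comprises Nptx1 and Nptx2, which encode secreted pentraxins, and Nptxr, which encodes a membrane-anchored pentraxin called the neuronal pentraxin receptor. These 3 genes were followed by their symbols through 4 deposited comparison tables from RNA sequencing of primary cortical neurons, and all 3 were listed in every table, out of 22040 genes listed in any table. Of the 3, Nptx2 drew attention because it had the highest likelihood ratio in both comparisons of AdipoRon with DMSO, and its relatives were taken with it. The AdipoRon responses of the family are therefore the values the members were chosen by, and they are given as a description. The comparisons between genotypes did not choose the members, but they share samples with those responses. The difference between the genotypes in their response is computed from the same responses. Neither is thus independent of the choice.

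The cultures were cortical neurons of newborn pups, either wild type (WT) or carrying a cDNA of human tau with the P301S mutation under the prion promoter (Tau). Tau neurons were seeded with pre-formed tau fibrils (PFF) on day 7 and kept for 18 more days, and AraC was added to limit glia in the cultures. The labels state seeding for the transgenic neurons, while the paper's text speaks of both genotypes as seeded, so whether WT neurons were seeded is unsettled. If they were not, genotype and seeding cannot be told apart in a comparison of Tau with WT. AdipoRon, a small-molecule agonist of the adiponectin receptors, or its vehicle DMSO was present for the last 24 h, at 10 μM by the sample tags, although the deposited protocol text gives 10 mM. Polyadenylated RNA was sequenced from 5 Tau cultures with DMSO, 5 Tau cultures with AdipoRon, 5 WT cultures with DMSO and 6 WT cultures with AdipoRon. The study's reporting summary states that samples from the same animal entered each treatment, but the tables do not tie samples to animals.

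Neuronal pentraxins act at excitatory synapses. Nptx1 and Nptx2 proteins are released by neurons, assemble with each other and with the receptor through their coiled-coil N-terminal parts, and bind and cluster AMPA-type glutamate receptors through their C-terminal pentraxin domain. Nptx2, also named Narp for neuronal activity-regulated pentraxin, is an immediate-early gene whose transcript follows synaptic activity and whose protein is best known at excitatory synapses on parvalbumin interneurons. Nptx1 is not known as such an immediate-early gene, and Nptxr can be cut from the membrane by the protease encoded by Adam17.

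The members lie on different chromosomes. In the GENCODE vM39 annotation of GRCm39, Nptx1 (ENSMUSG00000025582.6) spans chr11:119428472-119438585 on the minus strand, Nptx2 (ENSMUSG00000059991.9) spans chr5:144482692-144500381 on the plus strand, and Nptxr (ENSMUSG00000022421.22) spans chr15:79670552-79688967 on the minus strand. Each canonical transcript has 5 exons. Their coding sequences translate to 432 residues for Nptx1, 429 for Nptx2 and 493 for Nptxr. The annotated coding sequence of Nptxr begins with ctg, and those of the other members with atg. The family is recognised by the pentraxin signature, a motif of 8 residues in the C-terminal domain that starts with His-x-Cys. The coding stretches that hold this signature are shown because they are the part by which the 3 genes are known as relatives, and they also show how far the members differ in letters. They read 5′ to 3′ on the coding strand, with the 8 signature codons in capitals.
Nptx1: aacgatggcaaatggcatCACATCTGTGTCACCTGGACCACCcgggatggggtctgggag
Nptx2: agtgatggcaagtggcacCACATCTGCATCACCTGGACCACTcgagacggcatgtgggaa
Nptxr: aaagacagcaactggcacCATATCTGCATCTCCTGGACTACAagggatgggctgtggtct
These stretches lie at chr11:119434104-119434163, chr5:144492131-144492190 and chr15:79674563-79674622, each within a single coding exon, and the capitals stand for codons 314 to 321, 309 to 316 and 374 to 381. Within the capitals, Nptx1 and Nptx2 differed at 3 bases, Nptx2 and Nptxr at 4, and Nptx1 and Nptxr at 6. Over the aligned coding sequence, identity was 68.5% for Nptx1 and Nptx2, 67.6% for Nptx2 and Nptxr, and 67.1% for Nptx1 and Nptxr.

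Reads of the members could in principle be exchanged between such relatives, so shared letters were counted. The longest run of identical coding bases was 16 bases between Nptx1 and Nptx2 (tgcagcagaaggagac), 13 bases between Nptx1 and Nptxr (ctgctgcagagca) and 19 bases between Nptx2 and Nptxr (gagctcaccggcaagctgg). None of the 50-base windows of a member's transcript occurred in the canonical transcript of another member (0 of 2507 windows for Nptx2). Nptx2 had no such window in any other gene, and Nptx1 had 7 of 6247. For Nptxr, 851 of 4957 windows (17.2%) occurred in another gene, of which 843 lay in Npcd, a readthrough gene at chr15:79673876-79718438 that joins the neighbouring Cbx6 with Nptxr. Npcd was not listed among the genes of any comparison, and reads of Nptxr that fall in the shared part are uncertain. Cbx6, which encodes a chromobox protein, had log2 fold changes of 0.15 (SE 0.385) with AdipoRon in Tau neurons and -0.01 (SE 0.269) in WT neurons.

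The levels of the 3 transcripts in the 4 groups were solved from the mean level and the fold change in the deposited tables, in CPM, read counts scaled to library size. Each group enters 2 tables and so has 2 solutions, which differed by at most 2.08% for the members. These are group values with no spread between cultures, because values per culture were not used here. In bulk RNA, fewer cells that express a transcript and less transcript per cell cannot be told apart.

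Nptx2 was the member whose level moved most between groups. It stood at 76.0 CPM in WT neurons with DMSO and at 114 CPM in Tau neurons with DMSO, and with AdipoRon at 7.41 CPM in WT and 7.54 CPM in Tau neurons. Both groups with DMSO were thus above both groups with AdipoRon, and with AdipoRon the genotypes were nearly level. With DMSO, Nptx2 was above 86.6% of all listed genes in mean level, and with AdipoRon above 44.9%.

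Nptx1 showed the opposite order. Its level was 101 CPM in WT and 128 CPM in Tau neurons with DMSO, and 281 CPM in WT and 365 CPM in Tau neurons with AdipoRon. It was above 89.5% of listed genes with DMSO and above 98.1% with AdipoRon. Nptxr was the least abundant member with DMSO, at 32.7 CPM in WT and 35.1 CPM in Tau neurons. With AdipoRon it stood at 20.7 CPM in WT and 23.0 CPM in Tau neurons, so that its levels lay closer together than those of its relatives.

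**Figure D1:**
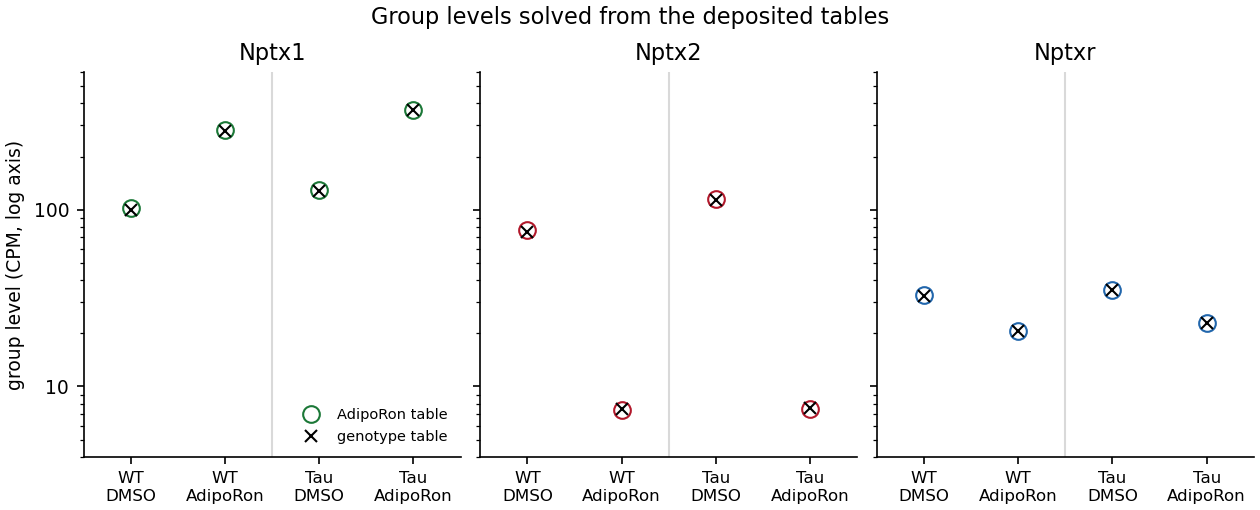
Level of each neuronal pentraxin in the 4 groups, in CPM on a log axis. Circles come from the table that compares AdipoRon with DMSO, crosses from the table that compares genotypes, and no error is drawn because the tables hold group values only. Nptx1 is between 101 and 128 CPM with DMSO and between 281 and 365 CPM with AdipoRon, Nptx2 falls to 7.41 and 7.54 CPM, and Nptxr stays between 20.7 and 35.1 CPM.

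Levels of different genes are comparable only per length, so CPM was divided by the length of the canonical transcript in kb. On this scale Nptx2 was the most abundant member with DMSO, at 29.7 CPM per kb in WT and 44.6 in Tau neurons, ahead of Nptx1 at 16.0 and 20.4 and of Nptxr at 6.54 and 7.02. With AdipoRon, Nptx1 led with 44.6 CPM per kb in WT and 58.0 in Tau neurons, Nptxr followed with 4.13 and 4.59, and Nptx2 was lowest with 2.90 and 2.95. Per kb, the order of Nptx1 and Nptx2 was thus exchanged with treatment in both genotypes, whereas in CPM Nptx1 was above Nptx2 in every group. The exchange rests on the annotated canonical lengths, and which transcripts these neurons use was not tested.

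Counted as a share of the family's summed level per kb, Nptx2 made up 56.9% in WT and 62.0% in Tau neurons with DMSO, and 5.61% and 4.50% with AdipoRon. Nptx1 made up 30.6% and 28.3% with DMSO and 86.4% and 88.5% with AdipoRon. The share of Nptxr was 12.5% in WT and 9.74% in Tau neurons with DMSO, and 7.99% and 7.01% with AdipoRon. The ratio of Nptx2 to Nptx1 per kb was 1.86 in WT and 2.19 in Tau neurons with DMSO, and 0.0650 and 0.0509 with AdipoRon. The summed level of the 3 members changed less than its makeup, from 52.3 to 51.6 CPM per kb in WT neurons and from 72.0 to 65.6 in Tau neurons. These shares were computed from the group levels and were not tested.

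AdipoRon was compared with DMSO within each genotype to ask how neurons respond to the agonist. Nptx2 fell in both genotypes. In Tau neurons its log2 fold change was -3.93 (SE 0.441, n = 5 and 5), which is 15.3-fold lower with a 95% interval of 8.38 to 27.8, and 6.56% of the DMSO level remained. In WT neurons it was -3.38 (SE 0.299, n = 6 and 5), or 10.4-fold lower with an interval of 6.96 to 15.7, and 9.58% remained. The likelihood ratio of 79.5 in Tau neurons exceeded the next one, 56.7 for Ptgs2, which encodes the inducible cyclooxygenase. In WT neurons the likelihood ratio of 128 was followed by 120 for Pnoc, the prepronociceptin gene, whose log2 fold change was -2.60. The adjusted p of Nptx2 was 9.94e-15 in Tau and 2.17e-25 in WT neurons (likelihood-ratio test of edgeR, adjusted by Benjamini-Hochberg over all genes of a table).

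Few genes had a larger fall than Nptx2 by fold. In Tau neurons 4 of 20294 genes had a log2 fold change below its own, and in WT neurons 11 of 21378. Among genes with a mean level within 0.5 log2 units of its own, 0 of 2768 in Tau and 1 of 2924 in WT neurons had a larger change in either direction. In the plot of change against level, Nptx2 lies at the lower edge of transcripts as abundant as it. In WT neurons Kcnv1, at a similar level, lies beside it at -3.40.

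Nptx1 had a log2 fold change of 1.51 (SE 0.51) in Tau neurons, which is 2.84-fold with a 95% interval of 1.42 to 5.68. In WT neurons it was 1.47 (SE 0.357), or 2.76-fold with an interval of 1.70 to 4.49. The sizes were close, and Nptx1 rose past the threshold in WT neurons (adjusted p = 0.00288, edgeR likelihood-ratio test, Benjamini-Hochberg) but not in Tau neurons (adjusted p = 0.237, unadjusted p = 0.00317). By size, 51 genes in Tau and 98 genes in WT neurons had a larger rise. Among genes of similar level, 2 of 784 and 2 of 1076 had a larger change.

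Nptxr had a log2 fold change of -0.62 (SE 0.458) in Tau neurons, with an interval from -1.51 to 0.28, and it stood at 65.3% of the DMSO level. In WT neurons the log2 fold change was -0.68 (SE 0.321), with an interval from -1.31 to -0.05, at 62.5% of the DMSO level. Neither passed the edgeR test after Benjamini-Hochberg adjustment (adjusted p = 1.00 in Tau and 0.390 in WT neurons).

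The threshold of 0.05 on the adjusted p was passed with AdipoRon by 1 of the 3 members in Tau neurons and 2 of 3 in WT neurons. Over all genes, 0.68% passed in Tau neurons, with 0.503% lower and 0.177% higher, and 3.07% passed in WT neurons, with 2.07% lower and 0.996% higher. Since the members were chosen with these contrasts known, their counts are set beside the background only for orientation. Over all genes, the median log2 fold change with AdipoRon was -0.01 for Tau and 0.01 for WT cultures.

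**Figure D2:**
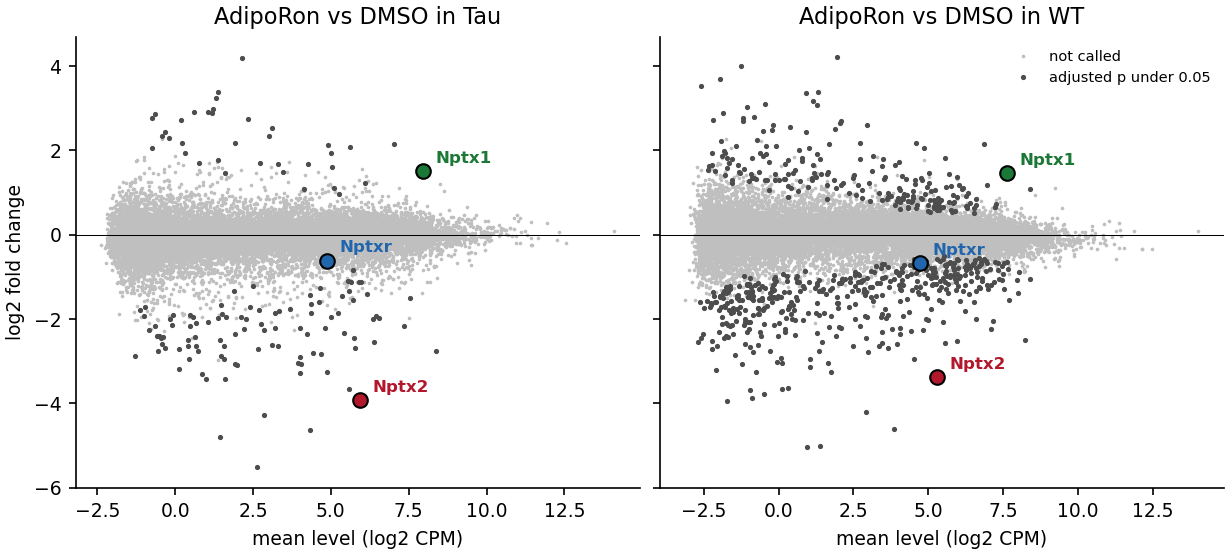
Log2 fold change with AdipoRon (vertical axis) against mean level in log2 CPM (horizontal axis) in Tau and WT neurons, with each gene as a grey dot and genes with an adjusted p under 0.05 as dark dots. Nptx2 lies at -3.93 and -3.38, below nearly every gene of its level, Nptx1 at 1.51 and 1.47 above most genes of its level, and Nptxr at -0.62 and -0.68 at the lower edge of the cloud.

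Tau and WT neurons were compared to ask what differs with the mutant tau transgene, with or without treatment (whether seeding also differs is unsettled, as given above). With DMSO, Nptx2 was 1.51-fold the WT level in Tau neurons (log2 fold change 0.60, SE 0.413, interval -0.21 to 1.41). Nptx1 had a log2 fold change of 0.36 (SE 0.332, interval -0.29 to 1.01) and Nptxr of 0.11 (SE 0.364, interval -0.60 to 0.82). All 3 values were above 0, and every interval included 0. After Benjamini-Hochberg adjustment of the edgeR test, 0 of 3 members passed, with an adjusted p of 1.00 for each. The unadjusted p of the edgeR test was 0.147 for Nptx2, 0.279 for Nptx1 and 0.761 for Nptxr, so that 0 of 3 were under 0.05. Over all 19811 genes, 0.00505% passed in this comparison, which is 1 gene.

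With AdipoRon, the genotypes were compared at a lower level of Nptx2. Its log2 fold change between Tau and WT neurons was 0.02 (SE 0.305, interval -0.57 to 0.62). For Nptx1 it was 0.38 (SE 0.475, interval -0.55 to 1.31), and for Nptxr 0.15 (SE 0.403, interval -0.64 to 0.94). Again 0 of 3 members passed the edgeR test after Benjamini-Hochberg adjustment (adjusted p = 1.00 for each, lowest unadjusted p = 0.423), where 0.341% of all genes passed. The interval of Nptx2 was the narrowest of the 3, and that of Nptx1 the widest.

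**Figure D3:**
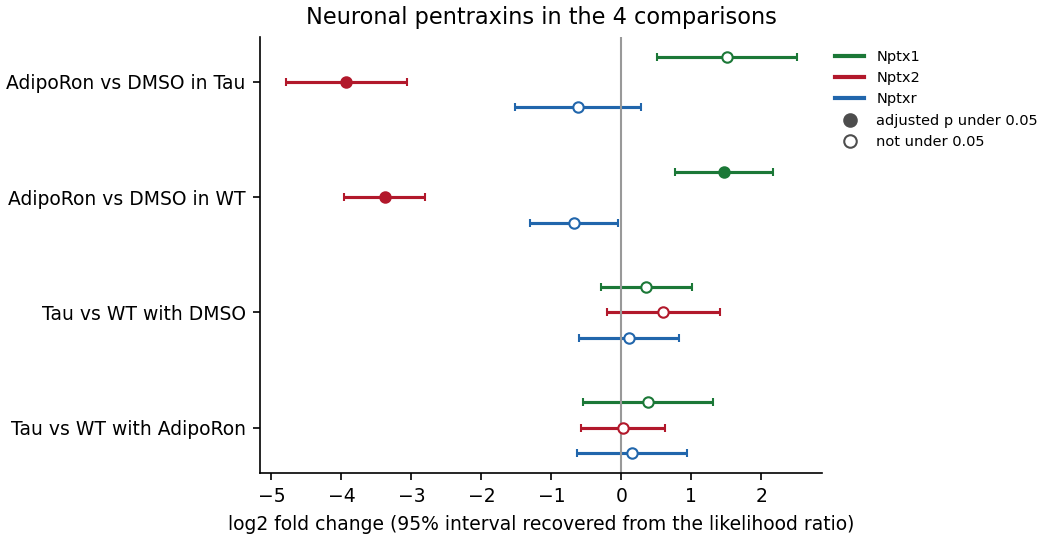
Log2 fold change of each neuronal pentraxin in the 4 comparisons, with bars for the 95% interval recovered from the likelihood ratio and filled points for an adjusted p under 0.05. The intervals of Nptx2 with AdipoRon run from -4.80 to -3.07 in Tau and from -3.97 to -2.80 in WT neurons, those of Nptx1 lie above 0 in both, and every interval of the genotype comparisons spans 0.

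Whether the response to AdipoRon differed between the genotypes was tested directly, from the difference of the log2 fold changes and both standard errors, since the AdipoRon comparisons share no sample. For Nptx2, the response of Tau neurons minus that of WT neurons was -0.55 (SE 0.533, interval -1.59 to 0.50, unadjusted p = 0.305 in a z test over edgeR's estimates). The deeper fall in Tau neurons was therefore within its error. For Nptx1 the difference was 0.04 (SE 0.623, interval -1.18 to 1.26), and for Nptxr 0.06 (SE 0.559, interval -1.03 to 1.16). For both, the interval reached beyond 1 log2 unit in either direction, so that responses unlike in size remain within the error. None of the members passed after Benjamini-Hochberg adjustment (adjusted p = 1.00 for each in the z test over edgeR's estimates). Over 19890 genes, 0% passed this test, and 183 genes had an unadjusted p under 0.05. The test scores of all genes were narrower here than under no effect, and with each score divided by the robust SD of all of them (0.314), a scaling added after the data were seen, the adjusted p of Nptx2 was 0.0284. The same scaling put Nptx2 past the threshold between the genotypes with DMSO (adjusted p = 0.0339 from edgeR's likelihood ratio). It also put Nptx1 past it with AdipoRon in Tau neurons (adjusted p = 0.00198 from the same ratio), a contrast the members were chosen by. The scaling raises the scores of all genes, and calls under it were not counted over all genes, so no background share stands beside them. These calls are therefore not read as results about the members.

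Treated Tau neurons are not compared with untreated WT neurons in the tables, but the difference can be summed along either side. Through Tau neurons with DMSO, Nptx2 was at -3.33 on the log2 scale relative to WT neurons with DMSO, Nptx1 at 1.87 and Nptxr at -0.51. Through WT neurons with AdipoRon the sums were -3.36 for Nptx2, 1.85 for Nptx1 and -0.52 for Nptxr. By value, Nptx2 thus stood above untreated WT neurons in untreated Tau neurons and below them in treated ones, whereas Nptx1 stood above them in both. The differences between untreated Tau and untreated WT neurons were within their error for both genes, as given above. These sums were not tested.

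The precision of the members was lower than that of other genes at the same level. In each of the 12 estimates (3 members in 4 comparisons), the recovered standard error was above the median of genes of similar level, by a factor of 1.04 to 1.94. The smallest factor was that of Nptx2 between the genotypes with AdipoRon. The tables do not hold the depth of each culture, and p-values measure the spread between these samples, which share animals across treatments.

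Other members of the pentraxin superfamily were looked at as a contrast to the neuronal ones. Of 7 other genes of the superfamily, 3 were listed in the tables. Ptx3, a long pentraxin of innate immunity, had log2 fold changes with AdipoRon of 1.02 (SE 0.983) in Tau and 1.76 (SE 0.718) in WT neurons, neither past the edgeR threshold after Benjamini-Hochberg adjustment (adjusted p = 1.00 and 0.235). Ptx4 fell by 2.40 on the log2 scale in WT neurons (SE 0.523, adjusted p = 4.77e-04 in the same test), and its value in Tau neurons was -2.02 (SE 0.797, adjusted p = 0.494). Ptx4 is a scarce transcript here, at 1.21 CPM in WT neurons with DMSO and 0.241 CPM with AdipoRon. Svep1, which encodes a large extracellular protein with a pentraxin domain, had log2 fold changes of -0.11 and 0.29.

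The AMPA receptors that neuronal pentraxins cluster were followed through 20 genes for receptor subunits and auxiliary proteins. With AdipoRon, 1 of 20 fell and 0 rose in Tau neurons, and likewise in WT neurons (over all genes, 0.503% and 2.07% fell past the threshold). That gene was Nrn1 in both genotypes, which encodes neuritin, an activity-regulated surface protein found with AMPA receptors, at log2 fold changes of -2.70 (SE 0.488) in Tau and -2.56 (SE 0.276) in WT neurons (adjusted p = 4.80e-05 and 4.73e-17, edgeR, Benjamini-Hochberg). Of the other named genes, Cacng3, an auxiliary subunit of the TARP family, was at -1.03 in Tau and -0.94 in WT neurons (adjusted p = 0.948 and 0.0566 in the same test). Cacng2, which encodes the TARP stargazin, was at -0.74 and -0.84, and the subunit gene Gria3 at -0.43 and -0.46, with no adjusted p under 0.05. The list's median log2 fold change was -0.14 in Tau and -0.22 in WT neurons, with 15 and 19 of 20 values below 0, beside medians near 0 over all genes. Before adjustment, 2 of 20 in Tau and 5 of 20 in WT neurons were under 0.05 in the edgeR test, all of them lower. Over all genes, 4.78% and 10.4% were under 0.05.

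Among 18 genes for scaffolds, trafficking proteins and synaptic adhesion partners of AMPA receptors, 0 passed the edgeR threshold with AdipoRon in either genotype, and before adjustment 0 were under 0.05 in Tau and 3 in WT neurons, where 4.78% and 10.4% of all genes were. Their medians were -0.24 in Tau and -0.25 in WT neurons, with 17 and 18 of 18 values below 0. The lowest adjusted p, 0.304 in WT neurons, belonged to Shank1, a scaffold of the postsynaptic density, with a log2 fold change of -0.87 (SE 0.379, edgeR, Benjamini-Hochberg). Homer1, another scaffold, was at -0.74 in Tau and -0.66 in WT neurons, Grasp at -0.75 and -0.70, and Dlg3 at -0.42 and -0.45.

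Proteases that shed the receptor, perineuronal net components, C1q-like synaptic proteins and the complement genes C1qa, C1qb and C1qc made up a further list of 17 genes. With AdipoRon, 0 passed in Tau neurons and 1 fell in WT neurons (over all genes, 0.503% and 2.07% fell past the threshold). Before adjustment, 2 of 17 were under 0.05 in the edgeR test in each genotype, where 4.78% (Tau) and 10.4% (WT) of all genes were. The gene that fell was Hapln1, a link protein of perineuronal nets, at -1.57 (SE 0.265, adjusted p = 8.75e-07, edgeR, Benjamini-Hochberg) in WT and -1.33 (SE 0.517, adjusted p = 0.471) in Tau neurons. C1ql3, a secreted C1q-like synaptic protein, was at -0.86 in Tau and -0.53 in WT neurons, C1ql2 at 0.93 and 0.99, and Cntnap4 at -0.54 and -0.65, with no adjusted p under 0.05. The medians of the list were 0.10 and 0.09.

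Activity-regulated genes, the class to which Nptx2 belongs, were counted without it. Of 34 such genes, 13 fell in Tau neurons and 19 in WT neurons, and 0 rose in either. Over all genes, 0.503% and 2.07% fell past the threshold. The other 21 genes of the list in Tau and 15 in WT neurons did not pass. All 13 of the first set were also in the second, which is 100% of the calls in Tau and 68.4% of those in WT neurons. The overlap over all genes was not counted here. The paper reports that nearly all genes responding in Tau neurons also responded in WT neurons, so this overlap does not set the list apart. Ptgs2 was at -3.08 (Tau) and -2.64 (WT), Nr4a1, an orphan nuclear receptor induced by activity, at -2.83 and -2.29, and Vgf, a neuropeptide precursor, at -2.77 and -2.50. The list medians were -0.98 (Tau) and -0.87 (WT), and 28 and 29 of 34 values were below 0. Nptx2 thus had a larger fall than each of these 3, in both genotypes. The list also holds Nrn1 and Homer1, which are counted above. It was written with earlier results of these data known, so its counts are not independent evidence of a direction.

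The same lists were read in the genotype comparisons. With DMSO, 0 of 34 activity-regulated genes passed the edgeR test between Tau and WT neurons, 0 were under 0.05 before adjustment, and 28 of 34 values were above 0 with a median of 0.16. With AdipoRon, 18 of 34 values were above 0 with a median of 0.01. In the other pathway lists 0 genes passed in either genotype comparison. There the unadjusted p of the edgeR test was under 0.05 for 1 of 20 AMPA receptor genes, 0 of 18 scaffold genes and 3 of 17 shedding and extracellular genes, with DMSO and likewise with AdipoRon, beside 1.26% and 3.34% of all genes. The 3 genes, named here after their values were seen, were C1qa, C1qb and C1qc, which encode the chains of complement C1q, a product of microglia in brain. Their log2 fold changes between Tau and WT neurons were -0.96, -0.78 and -0.83 with DMSO and -1.11, -1.09 and -1.06 with AdipoRon, beside medians of -0.85 and -1.23 for the microglia markers.

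**Figure D4:**
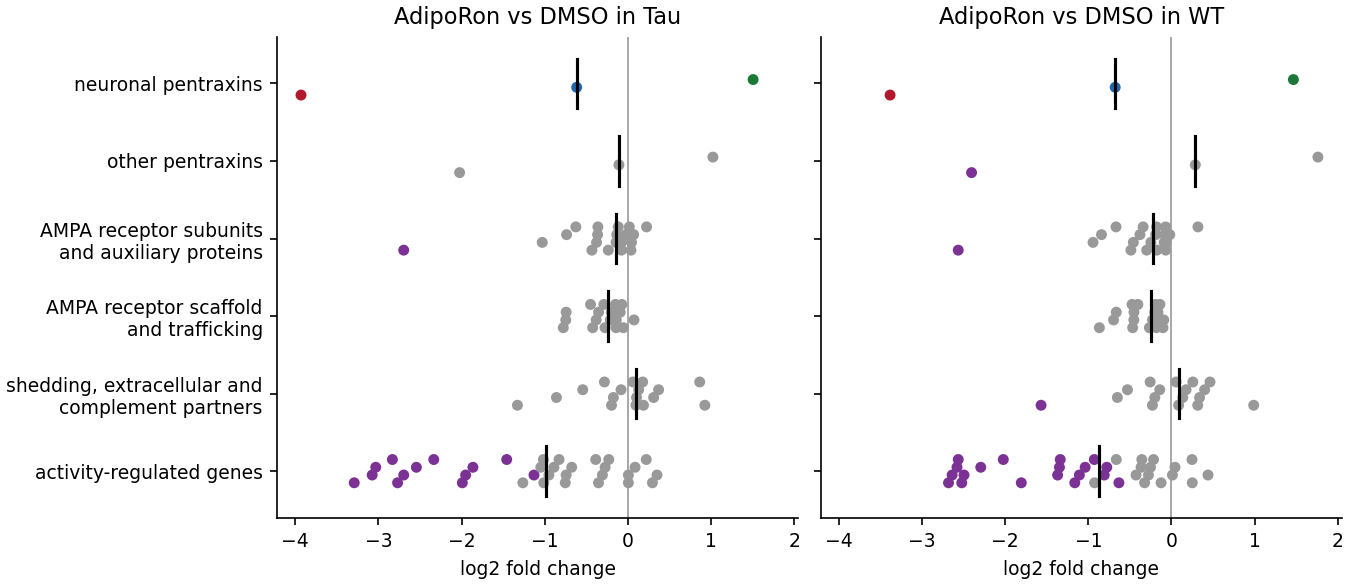
Log2 fold change with AdipoRon of each gene of the neuronal pentraxins and of 5 related lists, in Tau and WT neurons, with list medians as black bars and list genes with an adjusted p under 0.05 in purple. Nptx2 (red) lies further left than every gene of the lists, Nptx1 (green) lies at 1.51 and 1.47, and the activity-regulated genes have medians of -0.98 and -0.87.

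Each member's pattern over the 4 comparisons was matched within a set of 14023 genes, which holds the member, by the Euclidean distance of the log2 fold changes. These comparisons share samples, so likeness over them is a description. Nearest to Nptx2 was Kcnv1, a modifier subunit of potassium channels, at a distance of 0.406, with AdipoRon responses of -3.65 (Tau) and -3.40 (WT) on the log2 scale. Then came Pcsk1, a prohormone convertase, at 0.878, and the activity-regulated genes Npas4 at 1.05, Ptgs2 at 1.15 and Egr4 at 1.20. The nearest neighbour of Nptx2 was thus further away than any of the 5 neighbours of either relative. The distance includes the AdipoRon responses that Nptx2 was chosen by, in which few genes fell as far.

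Nearest to Nptx1 was Neurod2, a neuronal transcription factor, at a distance of 0.0880, with log2 fold changes of 1.56 in Tau and 1.45 in WT neurons. Among the next were Plin4 (0.219), Camkk1 (0.229), which encodes a calcium-dependent kinase kinase, and Pip5kl1 (0.341). Nearest to Nptxr were Kcnb2, a potassium channel gene, at 0.0237, the neuronal RNA-binding protein gene Elavl4 at 0.0440, Btbd8 at 0.0473, Sh3rf3 at 0.0476 and Mat2b at 0.0662. Of the genes near Nptxr, Mat2b passed the edgeR threshold in WT neurons with AdipoRon (adjusted p = 0.0161, Benjamini-Hochberg).

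Markers of cell types were read beside these results. The 9 neuron markers summed to between 3553 and 4485 CPM in the 4 groups, and with AdipoRon 8 of 9 had values below 0 in each genotype, with medians of -0.15 in Tau and -0.32 in WT neurons. Astrocyte markers were present in spite of AraC, with 6 genes summing to between 3420 and 3868 CPM. Microglia markers were lower in value in Tau than in WT neurons for 6 of 6 genes in both genotype comparisons, with medians of -0.85 with DMSO and -1.23 with AdipoRon, and summed to between 136 and 258 CPM. Markers of the oligodendrocyte lineage were lower in value in Tau neurons for 8 of 8 genes, with medians of -0.53 and -0.76, and summed to between 569 and 999 CPM. The 4 endothelial and mural markers listed summed to between 38.1 and 46.4 CPM, and none of the markers listed was at 0. In the edgeR test 0 of 33 markers passed in any comparison, and an unadjusted p under 0.05 was reached by 5 of 6 microglia markers in each genotype comparison and by at most 3 markers of any other list in a comparison. With AdipoRon, every marker listed lay closer to 0 than Nptx1 and Nptx2 in the same genotype. Nptxr lay within the range of the markers in Tau neurons, and in WT neurons it lay just below the lowest of them. In Tau neurons it was at -0.62, beside -0.95 for Cx3cr1. In WT neurons it was at -0.68, beside -0.67 for the neuron marker Slc17a6, the lowest marker, and 0.70 for Flt1, the highest. The part of cell makeup in the members' values was not tested.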

How the data were processed

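Polyadenylated RNA of 21 cultures was sequenced, and the labels' genotype and treatment gave the groups. The groups of each table were taken from the comparison in its name, since the sample descriptions assign WT samples with AdipoRon to the table of Tau against WT with DMSO and no sample to that of AdipoRon in WT. Sums of log2 fold changes around the 4 groups closed to 0.0188 (SD 0.00412, 19399 genes). The authors' methods state trimming, alignment to mm10 with STAR, quantification with RSEM and a generalized linear model in edgeR, whereas the paper's results name GRCm39 and the table names point to Rsubread, so the build behind the counts is unsettled. The deposited tables hold the authors' own comparisons: log2 fold change and mean log2 CPM, a test score (the likelihood ratio), its p-value and false discovery rate, and Entrez numbers. They were used because the members are defined on them. The tables hold no depth per sample, and the average that the paper states was not used here.

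P-values were recomputed from the likelihood ratio (chi-square, 1 degree of freedom) and adjusted by Benjamini-Hochberg over all genes of a table, with a threshold of 0.05, and gave the deposited calls. Standard errors were recovered as the size of the log2 fold change divided by the root of the likelihood ratio (approximate, since a prior count enters the authors' edgeR fold changes). Intervals cover 95%. Group levels were solved from log2 CPM, fold change and group sizes, as geometric means of both solutions. Sequences, lengths and positions came from GENCODE vM39 (GRCm39). Promoter sequences of the members were not used here.

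The members and lists were chosen with earlier results of these data known. Genes named are the members, all other pentraxins, up to 4 genes per list with the lowest adjusted p with AdipoRon, the 5 genes nearest to each member (log2 CPM over 1; 1 of those nearest to Nptx1 is not reported here), and genes next in rank. Marker lists are given as a whole. Readthrough neighbours were named after their overlap was seen. The alternatives were thresholds of 0.01 and 0.1, Benjamini-Yekutieli adjustment, adjustment over genes shared by the 4 tables or over those above the median level, centred fold changes, and other routes to levels and differences. The scripts were tested on simulated data. Python 3.11.15, numpy 2.4.6, pandas 2.3.3 and scipy 1.17.1 were used.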

Additional observations from a re-analysis of the deposited data

How the results depend on the processing

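Under each alternative named among the methods, the number of members past the threshold was the same in all 4 comparisons and in the difference of the AdipoRon responses (30 of 30 alternatives). Nptx2 was not among the genes above the median level in Tau against WT with AdipoRon, so that this count rests on the other 2 members. In 51 of 51 alternatives, the members' log2 fold changes moved by less than their standard error, their differences kept to the same side of 0 and of an unadjusted p of 0.05, and their group levels, which have no error of their own, moved on the log2 scale by less than the standard error of the AdipoRon response. Division of z by its robust SD over all genes was added after the data were seen. The division raises the scores of all genes and has no count of calls over all genes beside it, so its calls are not read as results about the members. It left AdipoRon in WT and the genotypes with AdipoRon at the same counts, and raised the count from 0 to 1 between the genotypes with DMSO (Nptx2, adjusted p = 0.0339, robust SD 0.454), from 1 to 2 with AdipoRon in Tau neurons (Nptx1, adjusted p = 0.00198, robust SD 0.702) and from 0 to 1 for the difference of the responses (Nptx2, adjusted p = 0.0284, robust SD 0.314), all with Benjamini-Hochberg adjustment. The comparisons rest on edgeR's likelihood ratios, and the difference on the z test of recovered standard errors. The median likelihood ratio was 0.206, 0.492, 0.925 and 0.397 of its value under no effect in the comparisons of genotypes with DMSO, of AdipoRon in Tau, of AdipoRon in WT and of genotypes with AdipoRon. The cause was not tested. No paired analysis was possible because the tables hold no values per sample, and for the same reason no replicate was left out.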
